A study of Mus musculus with 8 samples.

Results

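The nuclear genes of respiratory complexes II to V, the links of the mitochondrial electron transport chain that follow complex I together with the ATP synthase, were followed in mouse embryonic fibroblasts kept in low oxygen. The set held 46 genes: 4 subunits of complex II, 9 of complex III, the electron carrier cytochrome c, 10 subunits and 7 assembly factors of complex IV (cytochrome c oxidase) and 15 genes of complex V (ATP synthase). Members were found by symbol, old or new, among probe sets whose annotation names 1 gene only, and all 46 were among the 18848 genes tested. The cells were primary fibroblasts from a commercial supplier, grown at 37 °C in 5% CO2 on 100 mm dishes in high-glucose medium with serum. Then 4 samples stayed in atmospheric oxygen (normoxia) and 4 were moved to 1% oxygen (hypoxia), each for 24 h. From each sample 50 ng of RNA was amplified, labelled with biotin and hybridized to a Mouse Exon 1.0 ST array, which carries several probe sets per gene. Mouse strain, embryo number and cell lot were not given in the sources used here, and the groups stand for primary cells of 1 type at 1 oxygen level and 1 time.

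Complex II oxidizes succinate to fumarate, a step of the citric acid cycle, and passes the electrons to ubiquinone. Complex III hands them on to cytochrome c and pumps protons, complex IV passes them to oxygen, the final acceptor, and pumps protons as well, and complex V uses the resulting gradient to make ATP. Subunits of complexes III, IV and V are made partly from mitochondrial DNA and partly from nuclear genes, while complex II is entirely nuclear, and fibroblasts in culture can make ATP both by this route and by glycolysis.

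The array values were deposited as linear intensities and were compared on a log2 scale, so a difference of 1 means a fold of 2. The value of a gene is the mean log2 intensity over its single-gene probe sets with a mean at or above 2.35, the median of the whole table, and fold changes are hypoxia minus normoxia. Levels of different genes were not compared, since each probe set has its own brightness. Array medians ran from 2.38 to 2.44. Every hypoxia array had a narrower spread of log2 values than every normoxia array. The distance from lower to upper quartile spanned 2.51 to 2.61 in hypoxia, against 2.77 to 2.90 in normoxia. How far this narrower spread entered the fold changes was not tested separately. The arrays correlated at 0.923 to 0.944 within normoxia, 0.859 to 0.878 within hypoxia and 0.876 to 0.905 between groups. Over all 18848 genes limma called 100 higher and 150 lower at an adjusted p under 0.05, and 125 and 45 after quantile normalization. The median log2 fold change of all genes was -0.19 and 75.7% of them had a negative fold change, so the members are read against that shift. All 8 hypoxia response genes examined were called higher, among them Bnip3 by 3.40, Pdk1 by 2.44 and Ldha by 1.14 on the log2 scale. Of the fibroblast markers 12 of 12 were measured and none was called. Of the 12, 3 passed the unadjusted test as higher and 2 as lower, against 3.02% and 20.4% of all genes. Pdgfrb was called lower under 5 alternatives and Col3a1 higher under 4, and 1 further marker was called under 1. Their mean level was 7.07 to 7.29 in normoxia and 7.11 to 7.27 in hypoxia.

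No member was called in either direction by limma after Benjamini-Hochberg adjustment over all genes, against a background of 1.33% of all genes called, 0.531% higher and 0.796% lower. The lowest adjusted p was 0.067, for the ATP synthase gene Atp5g1. At an unadjusted limma p under 0.05, 17 of the 46 members (37.0%) were lower in hypoxia, against 20.4% of all genes, and 0 were higher, against 3.02% of all genes. In 15 members (32.6%) every hypoxia array lay below every normoxia array, which held for 14.5% of all genes, and in 0 members did every hypoxia array lie above, which held for 1.87%. The share of members with a negative fold change was 78.3% (36 of 46), near the 75.7% of all genes, and the median fold change of the members was -0.21, only 0.015 below the median of all genes. The difference between these shares was not tested, and it depended on the setting: 6.52% of members against 5.35% of all genes were lower after each array was centred on its median, 15.2% against 13.7% with relative ranks and 17.4% against 13.6% with the median of probe sets. With no filter on dim probe sets the median of the members lay 0.16 below that of all genes. The members also varied less between arrays of a group, with a median SD of 0.192 against 0.25 for all genes, and the part of that smaller spread in the count was not tested. Brighter genes, with a mean level at or above 5.45 (the lower quartile of the members), numbered 2339. Of these 492 were lower at an unadjusted limma p under 0.05, a share near the 20.4% of all genes. No overlap as lower was found in 486, a larger share than the 14.5% of all genes. The median fold change of the 2339 was -0.13 and their median SD 0.166. For the 34 members at that level the counts were 11 and 12, the median fold change -0.15 and the median SD 0.168. Both counts are larger shares than in the 2339, a difference that was not tested.

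**Figure D1:**
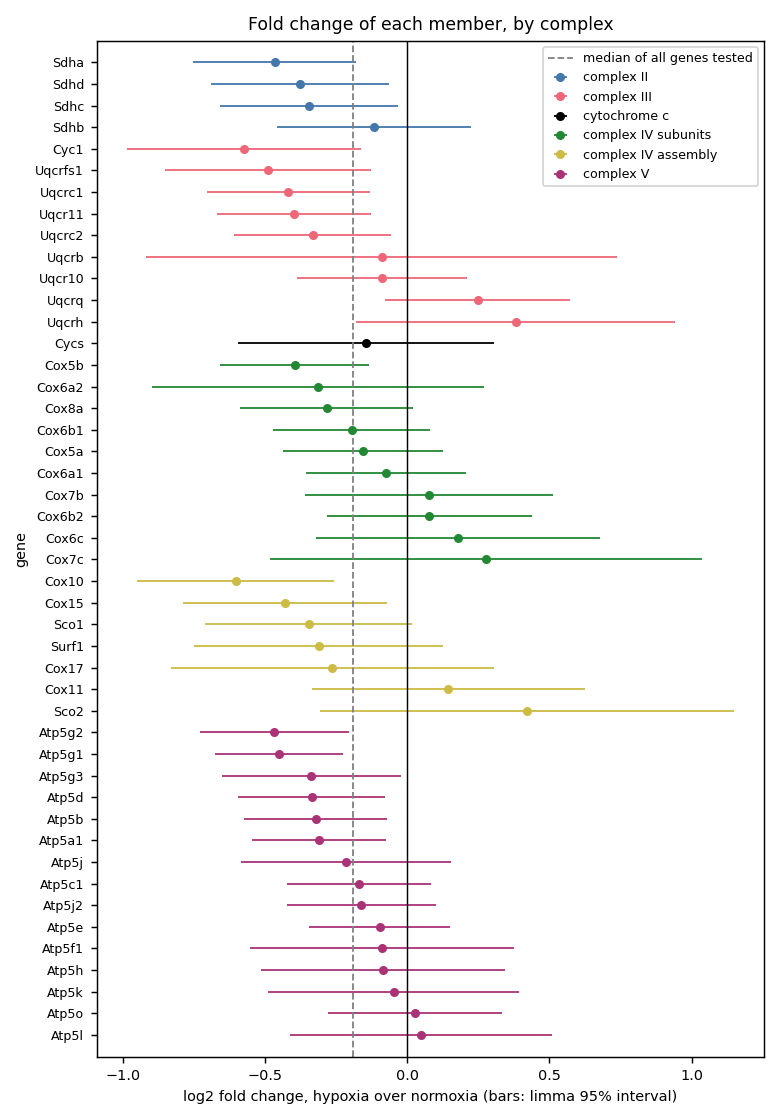
Log2 fold change (x axis, hypoxia over normoxia) of each of the 46 members (y axis), with limma's 95% interval as bars, coloured by complex, and the median of all 18848 genes as a dashed line at -0.19. The intervals of 17 members lie below 0 and none lies above 0.

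The 95% intervals of 44 of the 46 members lay within 1 log2 unit of 0 on either side. Cox7c, with an upper bound of 1.04, and Sco2, with an upper bound of 1.15, were the exceptions. The interval reached from 0.226 to 0.827 on either side of the fold change, so differences smaller than these could not be told from 0 with 4 arrays a group. A lower signal in bulk RNA can come from fewer cells that express a gene or from less RNA per cell, and these cannot be told apart here.

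Complex II had a median fold change of -0.36, which was 0.17 below the median of all genes. Its order against complex III was not stable, since the median of complex III was the lower one under 5 of 20 alternatives. All 4 of its genes had a negative fold change, against 75.7% of all genes, and 3 passed the unadjusted test as lower, against 20.4%. The mean over the 4 genes was 6.11 to 6.33 in normoxia and 5.83 to 5.94 in hypoxia. Sdha encodes the flavoprotein that holds the succinate-binding site. Its level was 5.34, 5.64, 5.57 and 5.50 on the normoxia arrays and 4.89, 5.15, 5.21 and 4.95 on the hypoxia arrays. The groups did not overlap, and normoxia replicate 1 came closest to the hypoxia arrays. The log2 fold change was -0.47 ± 0.13 (SE, n = 4 per group, limma adjusted p = 0.096), and 17 of 18 probe sets of Sdha had a negative difference.

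Sdhd and Sdhc encode the small membrane anchors of complex II, which bind ubiquinone. Sdhd measured 5.67, 5.88, 5.78 and 5.75 in normoxia and 5.40, 5.65, 5.43 and 5.10 in hypoxia. Hypoxia replicate 2 lay just under the lowest normoxia array and replicate 4 lay farthest down, for a log2 fold change of -0.38 ± 0.14 (SE, limma adjusted p = 0.15). Sdhc measured 7.30, 7.19, 7.17 and 7.35 in normoxia and 7.16, 6.70, 6.73 and 7.04 in hypoxia. Its groups were separated by little, since hypoxia replicate 1 nearly reached the normoxia arrays, and the log2 fold change was -0.34 ± 0.14 (SE, limma adjusted p = 0.18). Sdhb, the iron-sulfur subunit that carries electrons from Sdha to the anchors, had overlapping groups and a log2 fold change of -0.12 ± 0.15 (SE, limma adjusted p = 0.66), and its sign turned under 2 alternative settings.

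**Figure D2:**
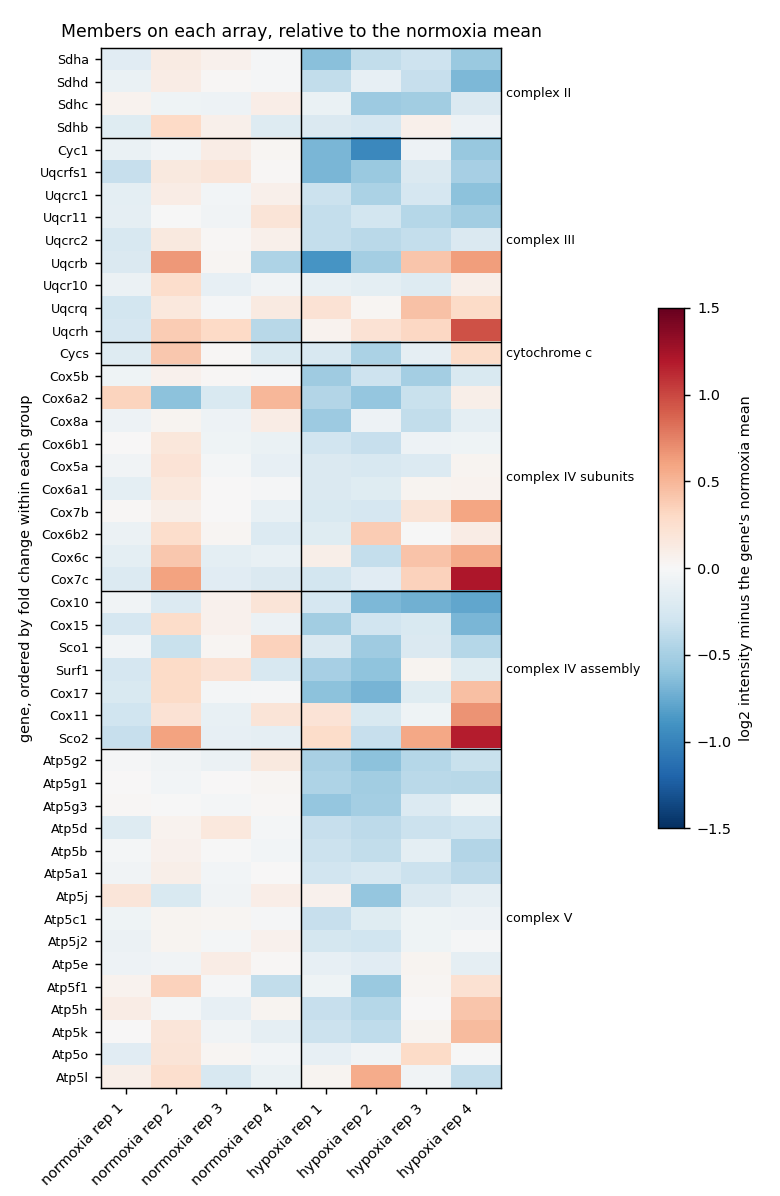
Log2 intensity of each of the 46 members (rows) on each of the 8 arrays (columns), minus the normoxia mean of the gene; blue is below and red above it, and members are ordered by fold change within each complex. The 4 rows of complex II are mostly blue on all hypoxia arrays, while Cox7c and Sco2 are deep red on hypoxia replicate 4.

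In complex III the median was -0.33, or 0.14 below that of all genes. Of the 9 genes 5 were lower at an unadjusted p under 0.05 (55.6%, against 20.4% of all genes). Of these 5, 2 had no overlap between the groups (22.2% of the 9, against 14.5% of all genes). The core and catalytic subunits all had negative fold changes, whereas the small accessory subunits ran from -0.40 to 0.38. Cyc1 encodes cytochrome c1, the heme protein that passes electrons to cytochrome c. It measured 5.53, 5.58, 5.74 and 5.66 in normoxia and 4.95, 4.67, 5.55 and 5.06 in hypoxia. Hypoxia replicate 3 lay among the normoxia arrays and the other hypoxia arrays lay well below them. The log2 fold change was -0.57 ± 0.18 (SE, limma adjusted p = 0.12), and the difference was negative on 11 of 11 probe sets.

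Uqcrc1 encodes a core protein that faces the matrix. Its level was 5.50, 5.76, 5.61 and 5.73 in normoxia and 5.33, 5.18, 5.40 and 5.03 in hypoxia. No hypoxia array reached the normoxia range, and the log2 fold change was -0.42 ± 0.13 (SE, limma adjusted p = 0.11). The other core protein, Uqcrc2, had a log2 fold change of -0.33 ± 0.12, and Uqcrfs1, the Rieske iron-sulfur protein that takes electrons from ubiquinol, one of -0.49 ± 0.16. In both, 1 or more hypoxia arrays overlapped normoxia replicate 1.

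Among the small accessory subunits of complex III, Uqcr11 measured 6.41, 6.54, 6.50 and 6.74 in normoxia and 6.19, 6.27, 6.12 and 6.02 in hypoxia. All hypoxia arrays were below all normoxia arrays, with a log2 fold change of -0.40 ± 0.12 (SE, limma adjusted p = 0.11). Uqcr10 and Uqcrb each had a log2 fold change of -0.09, with SEs of 0.13 and 0.37. Uqcrq and Uqcrh had positive values of 0.25 ± 0.14 and 0.38 ± 0.25. Each of these positive values leaned on 1 probe set, with a difference of 2.14 in Uqcrh and 1.95 in Uqcrq, while the median over the probe sets of the gene was 0.037 for Uqcrh and 0.11 for Uqcrq. Uqcrh measured 6.87, 7.51, 7.42 and 6.71 in normoxia and 7.18, 7.34, 7.44 and 8.09 in hypoxia, with hypoxia replicate 4 above all other arrays and the rest mixed.

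Cycs, the cytochrome c gene expressed in somatic cells, whose protein shuttles electrons from complex III to complex IV and can trigger apoptosis when it leaves the mitochondrion, measured 5.98, 6.58, 6.19 and 5.95 in normoxia and 5.93, 5.69, 6.04 and 6.45 in hypoxia. The groups were interleaved, with normoxia replicate 2 highest and hypoxia replicate 4 next. The log2 fold change was -0.15 ± 0.20 (SE, limma adjusted p = 0.68), which is 0.045 above the median of all genes.

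Among the subunits of complex IV the median fold change was -0.11, or 0.076 above that of all genes. Of the 10, 6 were negative (60%, against 75.7% of all genes) and 1 passed the unadjusted test as lower (10%, against 20.4%). That gene was Cox5b, whose protein binds zinc on the matrix side. Cox5b measured 6.83, 6.95, 6.90 and 6.87 in normoxia and 6.35, 6.58, 6.38 and 6.66 in hypoxia. The normoxia arrays lay close together and every hypoxia array lay below them, with a log2 fold change of -0.40 ± 0.12 (SE, limma adjusted p = 0.11). Cox8a, a small single-span subunit, also had no overlap.

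For Cox8a the levels were 8.03, 8.15, 8.03 and 8.22 in normoxia and 7.57, 8.03, 7.74 and 7.96 in hypoxia. Hypoxia replicate 2 came within the rounding of normoxia replicates 1 and 3, and the log2 fold change of -0.28 ± 0.13 (SE, limma adjusted p = 0.24) did not pass the unadjusted test. Cox5a, Cox6c, Cox7b and Cox7c, further nuclear subunits around the catalytic core, had log2 fold changes of -0.15, 0.18, 0.08 and 0.28 and overlapping groups. The value of Cox6c rests on 1 probe set only. Cox7c measured 5.69, 6.50, 5.73 and 5.68 in normoxia and 5.62, 5.73, 6.24 and 7.11 in hypoxia. In each group 1 array stood well above the others, normoxia replicate 2 and hypoxia replicate 4, and the SE was 0.34.

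Subunits 6a and 6b each come in a pair of isoforms. Cox6a1 is the widely expressed form of subunit 6a and Cox6a2 the form of heart and skeletal muscle. Cox6a1 measured 8.58, 8.89, 8.73 and 8.71 in normoxia and 8.51, 8.54, 8.77 and 8.78 in hypoxia, and Cox6a2 measured 3.99, 3.05, 3.43 and 4.16 in normoxia and 3.22, 3.07, 3.33 and 3.75 in hypoxia. Both overlapped between groups, with log2 fold changes of -0.07 ± 0.12 and -0.31 ± 0.26. Cox6b1 is the general form of subunit 6b and Cox6b2 the form of testis. Cox6b1 measured 8.48, 8.65, 8.41 and 8.38 in normoxia and 8.20, 8.14, 8.40 and 8.41 in hypoxia, and Cox6b2 measured 5.35, 5.70, 5.47 and 5.24 in normoxia and 5.26, 5.82, 5.43 and 5.55 in hypoxia. Their log2 fold changes were -0.20 ± 0.12 and 0.08 ± 0.16, and their groups overlapped too.

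Assembly factors of complex IV build its heme and copper centres. Their median fold change was -0.31, or 0.12 below that of all genes. With the median of probe sets it lay 0.012 above that of all genes. Of the 7, 5 were negative (71.4%, against 75.7% of all genes). At an unadjusted p under 0.05, 2 of 7 were lower (28.6%, against 20.4% of all genes). Cox10, which adds the farnesyl tail in the first step from heme B to heme A, had the largest negative fold change of all 46 members. It measured 5.18, 5.02, 5.29 and 5.42 in normoxia and 4.98, 4.55, 4.51 and 4.45 in hypoxia. Hypoxia replicate 1 lay just under normoxia replicate 2 and the other hypoxia arrays lay well below. The log2 fold change was -0.60 ± 0.15 (SE, limma adjusted p = 0.083), with a negative difference on 10 of 12 probe sets.

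Cox15 acts after Cox10 in the making of heme A. It measured 4.14, 4.66, 4.45 and 4.29 in normoxia and 3.87, 4.10, 4.15 and 3.70 in hypoxia. Only hypoxia replicate 3 reached normoxia replicate 1, and the log2 fold change was -0.43 ± 0.16 (SE, limma adjusted p = 0.15). Sco1, which delivers copper to the complex, measured 3.71, 3.42, 3.77 and 4.09 in normoxia and 3.54, 3.22, 3.53 and 3.31 in hypoxia, with a log2 fold change of -0.35 ± 0.16 (SE, limma adjusted p = 0.23). Normoxia replicate 2 lay inside the hypoxia range. Surf1, which acts in early assembly, and Cox17, the copper chaperone upstream of Sco1, had log2 fold changes of -0.31 ± 0.19 and -0.26 ± 0.25, and Cox11, which helps to insert copper, one of 0.14 ± 0.21. Sco2, a relative of Sco1, was measured by 1 probe set only and had a log2 fold change of 0.42 ± 0.32, whereas 7 further probe sets that name both Sco2 and its neighbour Tymp averaged -0.40.

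Complex V held the members with the smallest spread between arrays, with a median SD of 0.110. The mean over its 15 genes was 7.11 to 7.20 in normoxia and 6.82 to 7.03 in hypoxia, with no overlap, and the mean over all genes did not overlap either, at 4.17 to 4.26 against 4.04 to 4.09. Of its genes 13 of 15 had a negative fold change (86.7%, against 75.7% of all genes). At an unadjusted p under 0.05, 6 were lower (40%, against 20.4% of all genes). In 7 every hypoxia array lay below every normoxia array (46.7%, against 14.5% of all genes). The median, -0.17, lay 0.022 above that of all genes, so by its median the complex lay at the bulk of genes.

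Subunit c of complex V has 3 genes, Atp5g1, Atp5g2 and Atp5g3 (newer names Atp5mc1, Atp5mc2 and Atp5mc3). They encode the same mature protein, the membrane ring that turns as protons pass, with different targeting presequences. Atp5g1 and Atp5g2 had the largest negative fold changes of the complex. The fold change of Atp5g3 (-0.34) was near those of Atp5d (-0.34), Atp5b (-0.32) and Atp5a1 (-0.31). Atp5g1 measured 7.83, 7.78, 7.82 and 7.85 in normoxia and 7.35, 7.31, 7.41 and 7.41 in hypoxia. The gap between the groups was wide against the spread within them, which was 0.029 (SD) in normoxia and 0.052 in hypoxia. The log2 fold change was -0.45 ± 0.10 (SE, limma adjusted p = 0.067), and all 11 probe sets had a negative difference, 7 of them with no overlap.

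Atp5g2 measured 7.88, 7.84, 7.81 and 8.04 in normoxia and 7.40, 7.27, 7.47 and 7.55 in hypoxia. The groups were again apart, with a log2 fold change of -0.47 ± 0.12 (SE, limma adjusted p = 0.080) and a negative difference on 10 of 10 probe sets. Atp5g3 measured 8.34, 8.32, 8.29 and 8.34 in normoxia and 7.74, 7.81, 8.12 and 8.26 in hypoxia. Here the normoxia arrays were tight and the hypoxia arrays spread out, replicate 4 almost reaching normoxia, and the log2 fold change was -0.34 ± 0.14 (SE, limma adjusted p = 0.19). With 3 of the alternative settings Atp5g1 and Atp5g2 were called lower, and with 1 of these Cox10 was too.

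**Figure D3:**
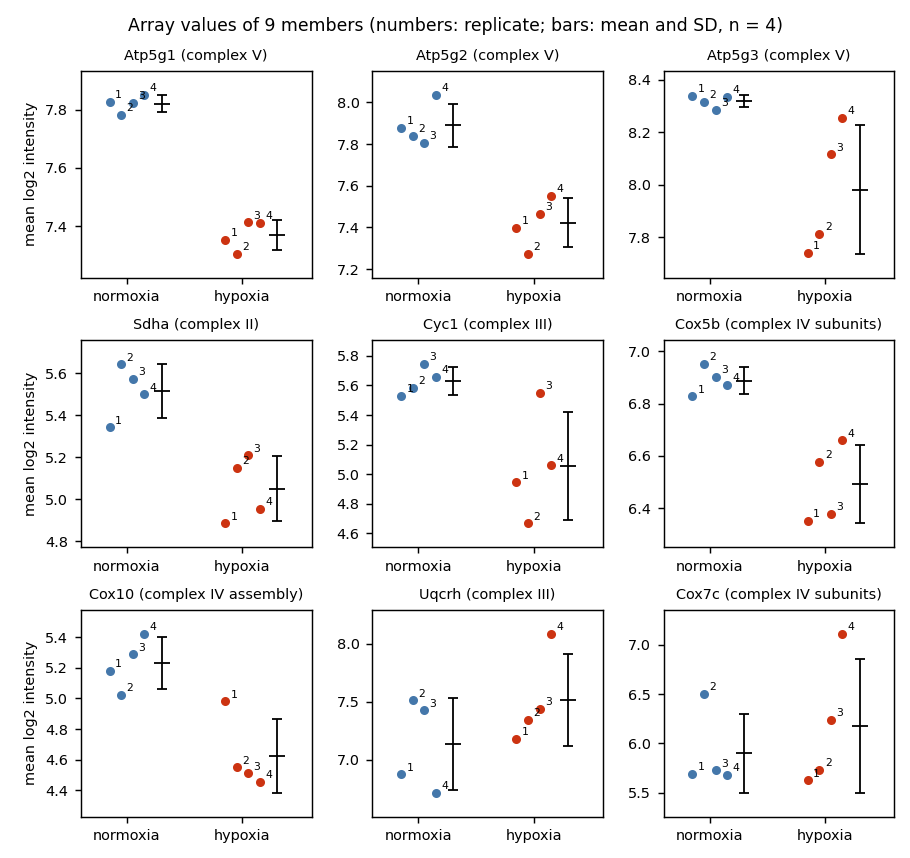
Mean log2 intensity (y axis) of 9 members in normoxia and hypoxia, a point for each array with its replicate number, and the mean and SD (n = 4) beside it; each panel has its own axis range, which does not start at 0. Atp5g1, Atp5g2, Atp5g3, Sdha, Cox5b and Cox10 have no overlap between groups, while Uqcrh and Cox7c have 1 high hypoxia array, replicate 4.

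The start-site regions of the subunit c genes and Cox10 are shown because these were the members called under an alternative setting or, for Atp5g3, the same subunit. Each is 300 bases from RefSeq (GRCm38.p6), 250 before to 50 after the annotated start, written 5′ to 3′ on the strand of the gene, here always the minus strand. Capitals mark matches, on either strand, to GCATGCGC (part of the NRF1 motif), CCGGAAG (an ETS motif) or ACGTG or GCGTG (the core of the HIF motif). CACGTG reads as ACGTG on both strands, so it counts as a pair of overlapping matches, and the NRF1 letters can overlap in the same way.
Atp5g1, chr11:96075582-96075881: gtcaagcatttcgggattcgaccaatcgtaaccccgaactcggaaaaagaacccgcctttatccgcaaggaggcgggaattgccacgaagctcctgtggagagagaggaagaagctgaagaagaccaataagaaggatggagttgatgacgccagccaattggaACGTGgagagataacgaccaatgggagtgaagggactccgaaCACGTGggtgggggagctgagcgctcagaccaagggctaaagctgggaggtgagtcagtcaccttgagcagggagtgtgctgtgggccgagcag
Atp5g2, chr15:102670998-102671297: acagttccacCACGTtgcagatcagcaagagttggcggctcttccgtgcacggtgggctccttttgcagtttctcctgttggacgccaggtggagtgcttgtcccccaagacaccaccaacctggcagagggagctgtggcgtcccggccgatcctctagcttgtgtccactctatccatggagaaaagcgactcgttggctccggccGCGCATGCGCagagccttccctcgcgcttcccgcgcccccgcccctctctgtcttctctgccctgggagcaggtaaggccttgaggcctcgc
Atp5g3, chr2:73911277-73911576: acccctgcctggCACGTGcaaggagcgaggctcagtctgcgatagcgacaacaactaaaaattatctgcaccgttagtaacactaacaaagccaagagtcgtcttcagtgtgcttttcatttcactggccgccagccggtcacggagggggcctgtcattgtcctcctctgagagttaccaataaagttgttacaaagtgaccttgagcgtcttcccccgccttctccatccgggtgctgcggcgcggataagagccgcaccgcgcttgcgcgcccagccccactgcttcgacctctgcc
Cox10, chr11:64079423-64079722: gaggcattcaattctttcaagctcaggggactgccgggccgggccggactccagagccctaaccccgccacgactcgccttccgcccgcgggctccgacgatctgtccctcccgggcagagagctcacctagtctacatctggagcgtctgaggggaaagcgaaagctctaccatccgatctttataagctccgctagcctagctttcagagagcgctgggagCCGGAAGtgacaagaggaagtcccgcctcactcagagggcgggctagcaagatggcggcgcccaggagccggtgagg

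Atp5g1 had 3 matches to the HIF core and 5 to CCAAT. A pair of these CCAAT matches overlaps on opposite strands, in ccaattgg. Atp5g2 had 2 overlapping matches to the NRF1 letters and 1 to the HIF core. Atp5g3 had 2 to the HIF core and 1 to CCAAT, and Cox10 had 1 to the ETS motif and 1 to AAGATGGC. RefSeq start sites were found for 37 of the 46 members, 40 regions in all. The NRF1 letters were present in 20% of the member regions and 2.71% of all 32851 regions of the same length, the ETS motif in 40% and 8.86%, AAGATGGC (the YY1 motif, as in Cox10) in 10% and 2.75%, CCAAT in 50% and 37.4%, and the HIF core in 70% and 43.8%. Letters that match a motif do not show that a factor binds there.

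The catalytic head of the ATP synthase is built from Atp5a1 and Atp5b, the alpha and beta subunits, around the stalk of Atp5c1 (gamma), Atp5d (delta) and Atp5e (epsilon). Atp5a1 measured 7.03, 7.18, 7.05 and 7.10 in normoxia and 6.81, 6.85, 6.77 and 6.69 in hypoxia. No hypoxia array reached the normoxia range, with a log2 fold change of -0.31 ± 0.10 (SE, limma adjusted p = 0.13). Atp5b (-0.32 ± 0.11) and Atp5d (-0.34 ± 0.11) also had no overlap and a limma adjusted p of 0.14 each. Atp5c1 was apart as well, at -0.17 ± 0.11, a value close to the median of all genes. Atp5e was not, at -0.10 ± 0.11.

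The remaining complex V genes make the peripheral stalk and the membrane part beside the ring. Of the peripheral stalk genes, Atp5f1 (subunit b), Atp5h (subunit d), Atp5j (coupling factor 6) and Atp5o (the oligomycin sensitivity protein) had log2 fold changes of -0.09, -0.09, -0.22 and 0.03. Of the genes for small membrane subunits, Atp5j2 (f), Atp5k (e) and Atp5l (g) had -0.16, -0.05 and 0.05. For Atp5l only 2 of 11 single-gene probe sets passed the filter, with a mean of 3.69 in normoxia and 3.73 in hypoxia. All 7 genes had overlapping groups and none was lower at an unadjusted p under 0.05. Within the complex the unadjusted calls thus lay in 3 subunits of the head and its stalk and in the 3 genes of the rotating ring, a description that was not tested.

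Single probe sets were then examined, since the gene value averages over them. Of 402 probe sets of the members that were kept, 69 (17.2%) had every hypoxia array below every normoxia array, against 6.75% of all 191376 single-gene probe sets kept, and 4 (0.995%) had every hypoxia array above, against 2.24%. The difference was negative on 297 (73.9%), against 65.5% of all. In complex V 27 of 131 were lower without overlap and 0 higher. The 4 higher ones belonged to Uqcrc1, Uqcrc2, Uqcrh and Cox7b. Probe sets of 1 gene share its RNA and are not independent, and the background of all probe sets was not matched to the members in level.

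**Figure D4:**
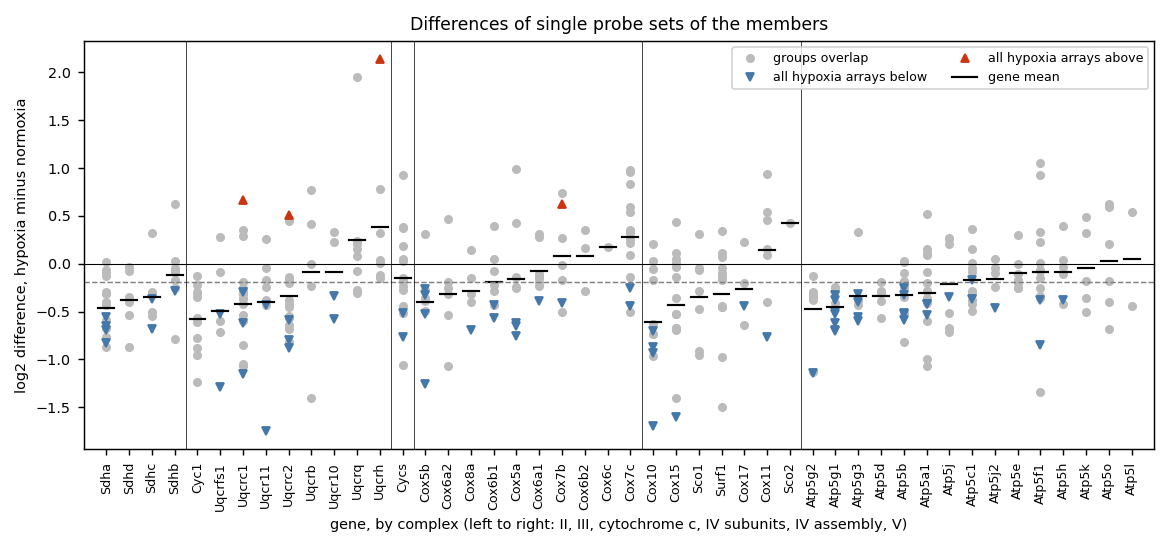
Difference in mean log2 intensity between hypoxia and normoxia (y axis) of each of the 402 kept probe sets of the members (x axis, genes by complex); blue triangles mark the 69 with all hypoxia arrays below all normoxia arrays, red triangles the 4 with all above, grey points the rest, black bars the gene means and the dashed line the median of all genes. All 11 points of Atp5g1 lie below 0.

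The rank of an array within its group was uneven across the members. Normoxia replicate 2 was the highest normoxia array in 30 of 46 members, against 32.3% of all genes, and normoxia replicate 1 the lowest in 23, against 30.2%. Hypoxia replicate 4 was the highest hypoxia array in 23 of 46, against 23.5% of all genes, and hypoxia replicate 2 the lowest in 25, against 28.7%. The mean over the 46 members was 6.41, 6.64, 6.50 and 6.48 in normoxia and 6.22, 6.18, 6.40 and 6.49 in hypoxia, so hypoxia replicate 4 lay among the normoxia arrays. Without normoxia replicate 2 and hypoxia replicate 4 together, a setting chosen after seeing the data, 13 members were lower at an unadjusted p under 0.05 and 0 were called.

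The count of lower members moved more after centring and after cyclic loess than with any single array left out, which gave 11 to 16. It also moved more with the median of probe sets, to 8, and with relative ranks, to 7. Quantile normalization moved it less than leaving out normoxia replicate 3. After each array was centred on its median over the genes tested, 3 members (6.52%, against 5.35% of all genes) were lower at an unadjusted p under 0.05 and 1 was higher, and the median of all genes moved from -0.19 to -0.0028. After cyclic loess 9 were lower (19.6%, against 6.52% of all genes) and 1 higher, and after quantile normalization 14 were lower (30.4%, against 12.5%). Of the 46 members, 25 had the same sign under every alternative on the log2 scale. Among them Atp5g1, Atp5g2, Sdha and Cox10 kept a negative fold change, with highest values of -0.26, -0.28, -0.28 and -0.41.

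**Figure D5:**
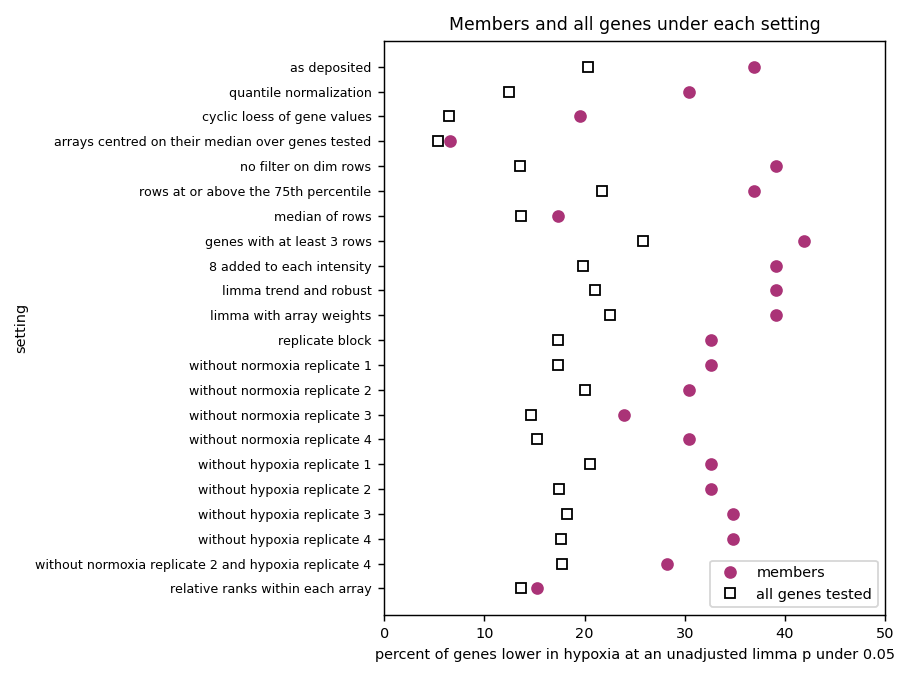
Percent of genes lower in hypoxia at an unadjusted limma p under 0.05 (x axis) under each setting (y axis), for the members (filled circles) and for all genes tested (open squares). The values as deposited give 37.0% and 20.4%, and the shares nearly meet when arrays are centred on their median.

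Other genes of the same complexes and their surroundings were set beside the members. Of 12 further subunits of complexes III to V that were measured, 1 was called higher, Cox4i2, the alternative form of subunit 4 of complex IV. It measured 3.97, 3.50, 3.60 and 3.70 in normoxia and 5.07, 4.39, 4.50 and 4.57 in hypoxia. All hypoxia arrays lay above all normoxia arrays, and it rose by 0.94 on the log2 scale (SE 0.18, limma adjusted p = 0.0437). That call was lost whichever single array was left out, at an adjusted p of 0.063 to 0.15. Cox4i1, the general form of subunit 4, measured 7.999, 8.15, 8.15 and 8.16 in normoxia and 7.88, 7.83, 8.07 and 8.06 in hypoxia, and its log2 fold change of -0.15 ± 0.11 (SE, limma adjusted p = 0.43) came with overlapping groups.

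Of 28 further assembly factors of complexes II to V none was called and 9 passed the unadjusted test as lower (32.1%, against 20.4% of all genes). The lowest adjusted p belonged to Ttc19, a factor of complex III, at -0.56 ± 0.12 (limma adjusted p = 0.059), and to Taco1, which aids translation of the mitochondrial COX1 mRNA, at -0.85 ± 0.19 (limma adjusted p = 0.067). Neither gene had overlapping groups, and they were called lower under 4 and 5 of 20 alternatives. The 6 mitochondrially encoded subunits measured (COX1, COX2, COX3, ATP6, ATP8 and CYTB) gave 0 calls and a median fold change of 0.15, from -0.13 for COX3 to 0.28 for COX1, and all had overlapping groups. All 6 lay above the median of all genes. Of the 46 nuclear members 24 lay below it (52.2%, against 50% of all genes by definition). The difference between these sets was not tested.

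Complex I, measured by 35 subunit genes, gave 0 calls and a median of -0.15. Of the 35, 8 were lower at an unadjusted p under 0.05 (22.9%, near the 20.4% of all genes). Ndufab1 was at -0.38 (limma adjusted p = 0.097, called lower under 2 alternatives) and Ndufa9 at -0.54 (limma adjusted p = 0.099). Of 18 genes for import, porins and chaperones, 1 was called: the adenine nucleotide carrier Slc25a5, which exchanges the ATP made by complex V for ADP, fell by 1.09 on the log2 scale (limma adjusted p = 0.036) on 2 probe sets. That call held without hypoxia replicate 4 (adjusted p = 0.0155) and was lost without any other array, at an adjusted p of up to 0.115. Of the 18 genes 17 had a negative fold change (94.4%, against 75.7% of all genes) and 6 passed the unadjusted test as lower (33.3%, against 20.4%). Of 15 regulators of mitochondrial genes none was called. Mxi1, a Myc antagonist, had the lowest adjusted p at a log2 fold change of 0.55 (limma adjusted p = 0.056) and was called higher under 8 of 20 alternatives, and Polrmt, the mitochondrial RNA polymerase, had -0.46 (limma adjusted p = 0.098).

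Markers of other cell types gave 0 calls among 13 muscle, 8 blood, 7 epithelial and 6 endothelial genes measured. The mean of the muscle markers was 3.80 to 4.15 in normoxia and 3.58 to 3.75 in hypoxia, without overlap. The mean over all genes did not overlap either, at 4.17 to 4.26 against 4.04 to 4.09. Of the 13 muscle markers 5 were lower at an unadjusted p under 0.05 (38.5%, against 20.4% of all genes). Acta1 was at -0.58 (limma adjusted p = 0.056) and Tnnt2 at -0.59 (limma adjusted p = 0.080). Acta1 was called lower under 6 of 20 alternatives and Tnnt2 under 1. The part of these genes in the fold changes of the members was not tested. The mean of the blood markers was 3.93 to 4.27 in normoxia and 3.30 to 4.08 in hypoxia, that of the epithelial markers 3.64 to 4.17 and 3.61 to 3.76, and that of the endothelial markers 3.45 to 3.82 and 3.41 to 3.51, all overlapping.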

How the data were processed

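Gene expression was measured in 8 samples, 4 per group, with groups taken from the labels. The authors deposited linear signal intensity for 641130 probe sets. Background correction, normalization and summarization of these intensity values are not given in the sources used here. Replicates are described as biological, in a higher number per condition than the labels give, and the labels were followed. P-values measure the spread between these samples only, and the number of arrays limits precision.

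Of the probe sets 307991 named 1 gene, 7047 several and 326092 none. Values were taken as log2 of the deposited intensity without further normalization, and 191376 single-gene probe sets at or above the table median (2.35) were averaged per gene. Symbols were updated through RefSeq (GRCm38.p6). The test was limma's two-sided moderated comparison of hypoxia with normoxia (version 3.58.1, R 4.3.3) without covariates, and p-values were adjusted by Benjamini-Hochberg over 18848 genes, with a threshold of 0.05. The fit was tested on simulated data. Figures were drawn with matplotlib 3.10.9. Batches could not be examined, since the sources used here name none.

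Every member is named, with array values for the 3 of lowest p in each group of genes and for Cycs and pairs of isoforms. From the other lists, up to 4 called genes or otherwise up to 2 of lowest p are named. Uqcrh and Cox7c were added after their values were seen. The members and lists were chosen with earlier results of these data known. Alternatives covered normalization, the filter, the summary, the fit, the replicate number as a block and each array left out.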

Additional observations from a re-analysis of the deposited data

Results flagged for a closer look

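In 4 of 92 groups of 4 arrays (46 members in each condition) 1 array stood apart by its gap to the nearest of the others over the range. Chance flags about 1 in 20 groups. Normoxia replicate 2 was high in Uqcr10 (8.18, the next array at 7.85), in Cox6c (9.33, the next at 8.82) and in Cox7c (6.50, the next at 5.73). Hypoxia replicate 4 was high in Cox5a (7.42, the next at 7.18). These 2 arrays were also the ones most often highest among the members in their group.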

How the results depend on the processing

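Of 917 fold changes of members under the alternatives, 7 passed the threshold, and 43 members were never called. Members called lower numbered 3 with genes of at least 3 probe sets (Atp5g1, Atp5g2 and Cox10), where 4.28% of all genes were called lower, and 2 each (Atp5g1 and Atp5g2) with 8 added to each intensity (1.77% of all genes) and with limma's trend and robust options (2.21%), against 0 as deposited (0.796%). Members lower at an unadjusted p under 0.05 (17 as deposited) numbered 9 after cyclic loess, 3 after centring, 8 with the median of probe sets and 7 with relative ranks, and 11 to 16 with single arrays left out, fewest without normoxia replicate 3. Members higher (0 as deposited) numbered 1 after cyclic loess, 1 after centring and 2 with the median of probe sets, and 0 to 1 with single arrays left out, the 1 without hypoxia replicate 2. With no filter on dim probe sets the median fold change minus that of all genes was -0.16 for the members, -0.27 for complex II, -0.30 for complex III, -0.26 for complex IV assembly and -0.16 for complex V, since the median of all genes was then -0.047. For complex V (0.022 as deposited) it was -0.057 with probe sets at or above the 75th percentile, -0.0602 without normoxia replicate 2 and hypoxia replicate 4, and -0.0607 (without hypoxia replicate 4) to 0.0730 with single arrays left out. Apart from the median of all genes, the cause of these moves was not tested. Calls over all genes, 100 higher and 150 lower as deposited, ran from 34 to 217 and from 3 to 635.

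Same-numbered arrays of both groups deviated with correlations of 0.072, -0.12, 0.046 and -0.0056. These values cannot decide whether same-numbered samples were handled together, and the labels do not say. With the replicate block 15 members were lower at an unadjusted p under 0.05, 0 were called, and calls over all genes were 34 higher and 3 lower.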

Other observations

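Some probe sets name a member together with another gene and were left out of the gene values. For Atp5l, whose 2 kept single-gene probe sets gave a log2 fold change of 0.05, 6 such probe sets averaged -0.28, with groups overlapping. For Uqcrb 2 such probe sets averaged 0.88 against -0.09 on its own, for Atp5h 7 averaged -0.24 against -0.09, for Atp5j 4 averaged -0.014 against -0.22, for Cox6c 6 averaged 0.0037 against 0.18 and for Atp5o 3 averaged 0.029 against 0.03. In each of these the groups overlapped.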
